A study of Mus musculus with 10 samples.

Results

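Interferon-stimulated genes are the transcripts that a cell makes in response to interferons, the secreted proteins that warn of viral infection, and among them are the sensors that detect viral nucleic acid. In this group 53 mouse genes were taken by symbol from the deposited table of 57010 gene identifiers. Only genes with a mean of at least 3 on the deposited log2 scale, the lowest level at which a gene was tested, were taken. By this choice all 53 are among the 15223 genes tested. The member closest to that limit was Cmpk2, with a mean of 4.03.

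The samples were C2C12 cells, a mouse muscle cell line labelled as wild-type myoblasts, which fuse into contractile myotubes when serum is lowered. Cells were kept in differentiation medium with 2% horse serum for 3 days and then received an adenovirus carrying Gfp only (GFP group, n = 5) or Arrdc2 with Gfp (Arrdc2 group, n = 5). The virus was removed with the medium after 24 h, and the samples are labelled 48 h. Arrdc2 encodes an alpha-arrestin, an adaptor that brings ubiquitin ligases to membrane proteins. Both groups received adenovirus, no source used here states the viral dose, and no culture without virus was analysed here. The labels do not say whether the 5 samples of a group were separate cultures, so a p-value here reflects only how far these samples vary, and that variation may be technical.

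Most cell types can mount this response. Type I interferons bind the receptor chains IFNAR1 and IFNAR2, the kinases JAK1 and TYK2 are activated, and STAT2 joins IRF9 in a complex that binds the interferon-stimulated response element of target promoters. Targets of interferon gamma often hold another element, the gamma-activated site. Sensors such as RIG-I and MDA5, which recognise double-stranded RNA in the cytosol, are themselves targets, and many of the induced proteins degrade, trap or edit viral RNA.

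Depth lay between 18.93 and 28.65 M reads per library, as recovered from the deposited values. Values below are these reads divided by a size factor per library, called normalised reads. They are listed in the order of GFP libraries 3, 4, 5, 6 and 7 and Arrdc2 libraries 6, 7, 9, 10 and 11, named by the number in the column header. Folds with 95% intervals come from recovered reads, while each log2 difference, its standard error (SE) and its Benjamini-Hochberg adjusted p come from limma on the deposited values, which are shrunk and understate a difference, most for genes with few reads. A gene "rose" or "fell" where its limma adjusted p was below 0.05. Arrdc2 itself stood at 90.4, 124, 109, 99.6 and 89.8 normalised reads in the GFP libraries and 128, 123, 158, 118 and 133 in the Arrdc2 libraries, and it rose 1.29-fold (95% interval 1.09 to 1.51; limma adjusted p = 0.0178). Arrdc2 libraries 7 and 10 lay within the GFP range for this gene and the other 3 above it. Whether transcripts of the viral Arrdc2 were counted for this gene was not examined, so the fold may not show how much Arrdc2 the virus added.

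Of the 53 genes 39 rose in the Arrdc2 libraries and 0 fell, whereas 14.5% of all tested genes rose and 15.8% fell (30.3% in either direction). The remaining 14 were also higher on average, with log2 differences from 0.02 upwards, but did not pass the test. The median log2 difference was 0.17 for the members and 0.00 for all tested genes, and the median fold from recovered reads was 1.40 and 1.01. At least a 1.5-fold difference was reached by 22 members. Folds ran from 1.04 for Adar to 2.64 for Oas3. Voom on the recovered reads called 38 members higher and 0 lower, against 14.3% and 15.7% of all genes. All 5 Arrdc2 libraries lay above all 5 GFP libraries for 11 members, namely Ddx60, Gbp7, Ifih1, Ifit1, Ifit2, Lgals3bp, Parp12, Parp9, Samhd1, Stat2 and Tlr3 (8.70% of all genes show this). In the other 42 members at least 1 Arrdc2 library lay within or below the GFP range.

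**Figure D1:**
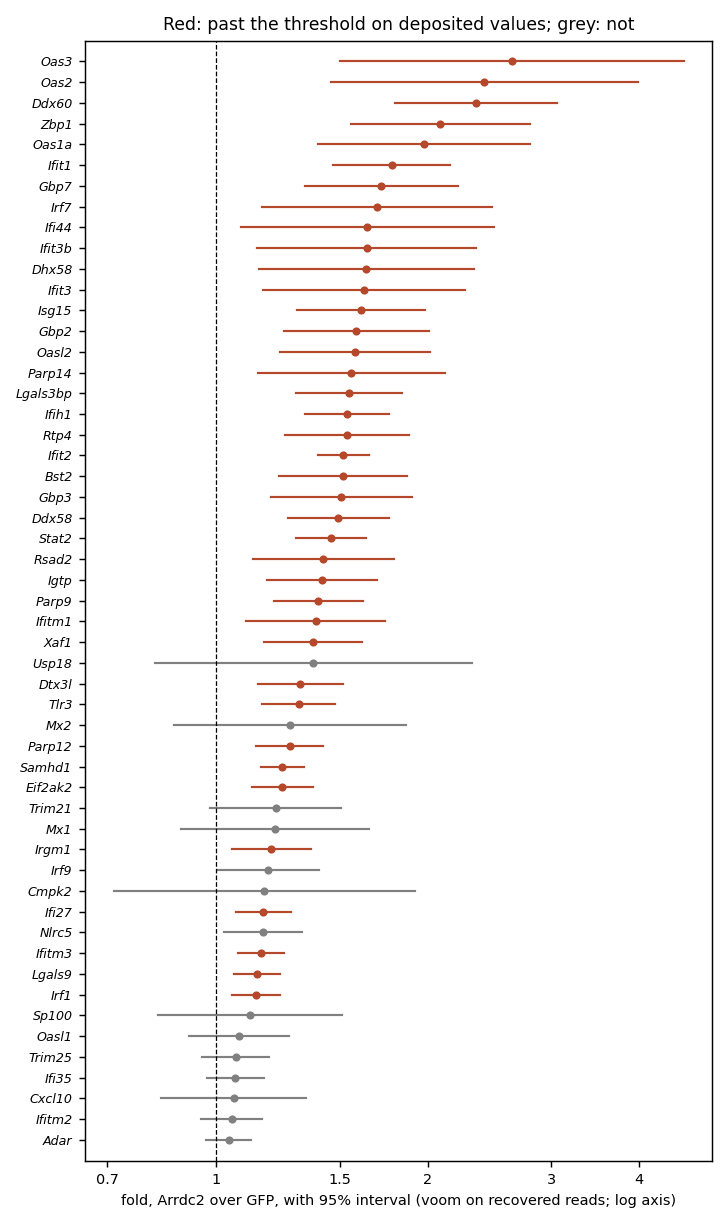
Fold of each of the 53 genes, Arrdc2 over GFP, on a log axis, from recovered reads (n = 5 per group), with its 95% interval. Red marks the 39 genes that rose on the deposited values and grey the other 14; all 53 points lie above 1, from 1.04 for Adar to 2.64 for Oas3.

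Promoter sequences were examined because the members are known to be controlled through these elements. RefSeq windows (build GRCm38.p6) that run from 250 bases before to 50 bases after a transcription start were found for 42 of the 53 members; Usp18, Oas2, Mx1, Mx2, Dhx58, Ifi27, Zbp1, Parp9, Parp14, Rtp4 and Nlrc5 have no window. The response element was searched on both strands as GAAA, any 2 bases and GAAA, which on the other strand reads TTTC, any 2 bases and TTTC. It was present for 23 of the 42 members (54.8%) and for 1079 of 27025 genes in the whole promoter table (3.99%). The gamma-activated site, searched as TTCNNNGAA, which reads the same on both strands, was present for 11 members (26.2%) and for 2582 genes (9.55%). The letters of a match do not show that a factor binds there. Stretches around the response element are printed for the 6 members with the largest log2 differences among those that rose and hold it, 5′ to 3′ on the strand of the gene, with the element in capitals. Of these genes, Ifit1 encodes a protein that binds foreign RNA ends, Stat2 the signal transducer itself, Bst2 the membrane tether that holds back budding virus, Isg15 a ubiquitin-like tag, Ddx58 the sensor RIG-I, and Ddx60 an antiviral helicase.
Ifit1: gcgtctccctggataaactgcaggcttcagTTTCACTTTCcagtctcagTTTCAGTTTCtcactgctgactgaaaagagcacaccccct
Stat2: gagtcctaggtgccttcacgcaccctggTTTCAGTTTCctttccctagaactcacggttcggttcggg
Bst2: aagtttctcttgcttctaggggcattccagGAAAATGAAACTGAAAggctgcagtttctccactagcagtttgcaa
Isg15: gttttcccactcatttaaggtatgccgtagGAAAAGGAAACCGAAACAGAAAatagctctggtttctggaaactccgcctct
Ddx58: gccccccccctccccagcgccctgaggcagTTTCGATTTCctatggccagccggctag
Ddx60: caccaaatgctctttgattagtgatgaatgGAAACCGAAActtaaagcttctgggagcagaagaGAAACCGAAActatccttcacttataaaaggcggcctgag

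The Ifit1 stretch lies at chr19:34640755-34640843 on the plus strand and holds the element from bases −104 and −85, counted from the start site. For Isg15 (chr4:156200845-156200926 on the minus strand) the element occurs in 3 overlapping copies, from bases −78, −72 and −66, and for Bst2 (chr8:71537557-71537632 on the minus strand) in a pair of overlapping copies, from bases −130 and −124. Ddx60 (chr8:61928004-61928107 on the plus strand) has copies from bases −53 and −19. Stat2 (chr10:128270248-128270315 on the plus strand) has its copy from base −222, and Ddx58 (chr4:40239796-40239853 on the minus strand) from base 3 of the transcript, so its position differs widely between members. Of the 23 members with the element 20 rose, and of the 19 with a window but no match 12 rose, against 14.5% of all tested genes. The median log2 differences were 0.20 and 0.14. The share that rose among all genes with the element was not computed, and the difference between these sets of members was not tested. A member without these exact letters may still hold a variant of the element.

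The Arrdc2 libraries differed among themselves. Relative to each gene's mean in the GFP libraries, the median member stood at 1.60 in Arrdc2 library 6, 1.55 in library 7 and 1.64 in library 11, but at 1.11 in library 9 and 1.15 in library 10. In the GFP group the same median was 1.13 in library 3, 0.871 in library 4, 1.003 in library 5, 0.967 in library 6 and 1.03 in library 7. Arrdc2 libraries 9 and 10 therefore lay close to the highest GFP library and the others well above it. For 44 of the 53 members, libraries 9 and 10 were the lowest pair of the Arrdc2 group, an order held by 12.5% of all tested genes. Library 11 was the highest of its group for 36 members (20.1% of all genes), and GFP library 3 was the highest of its group for 33 (18.2%) and GFP library 4 the lowest for 30 (18.1%), so the members also moved together within the GFP group. Depth was 24.67 and 28.65 M reads in Arrdc2 libraries 9 and 10 and 26.81, 24.43 and 23.50 M in libraries 6, 7 and 11. In GFP libraries 3 and 4 it was 21.15 and 18.93 M, the latter the lowest of all libraries. The part of depth in these orders was not tested. Within the Arrdc2 group, the normalised reads counted for the Arrdc2 gene were highest in library 9 and lowest in library 10. They may not show how much Arrdc2 the virus added.

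**Figure D2:**
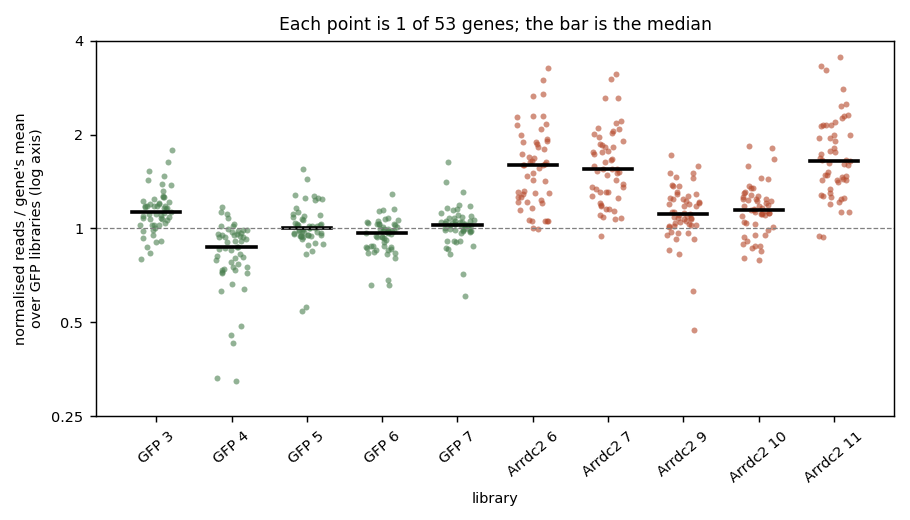
Normalised reads of each of the 53 genes divided by the gene's mean over the 5 GFP libraries, by library, on a log axis; bars mark medians. Arrdc2 libraries 6, 7 and 11 have medians of 1.55 to 1.64, while Arrdc2 libraries 9 and 10, at 1.11 and 1.15, lie beside GFP library 3 at 1.13.

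The number of members above the highest GFP library was 45 in Arrdc2 library 6, 47 in library 7 and 51 in library 11, and 18 in library 9 and 29 in library 10. For all tested genes the corresponding shares were alike in the 5 libraries, 28.1%, 26.5% and 28.2% against 29.8% and 28.8%. The Arrdc2 libraries nevertheless differed beyond the members. The mean chi-square per gene between 2 Arrdc2 libraries ran from 2.87 (6 and 7) to 17.5 (6 and 10), and was 7.23 for 9 and 10. Between 2 GFP libraries it ran from 2.61 to 8.22. The range among Arrdc2 libraries was wider than among GFP libraries for 42 members (56.7% of all genes). Leaving out any 1 of the 10 libraries left between 34 and 42 members called higher and 0 lower, with 42 without Arrdc2 library 10 and 34 without Arrdc2 library 11.

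**Figure D3:**
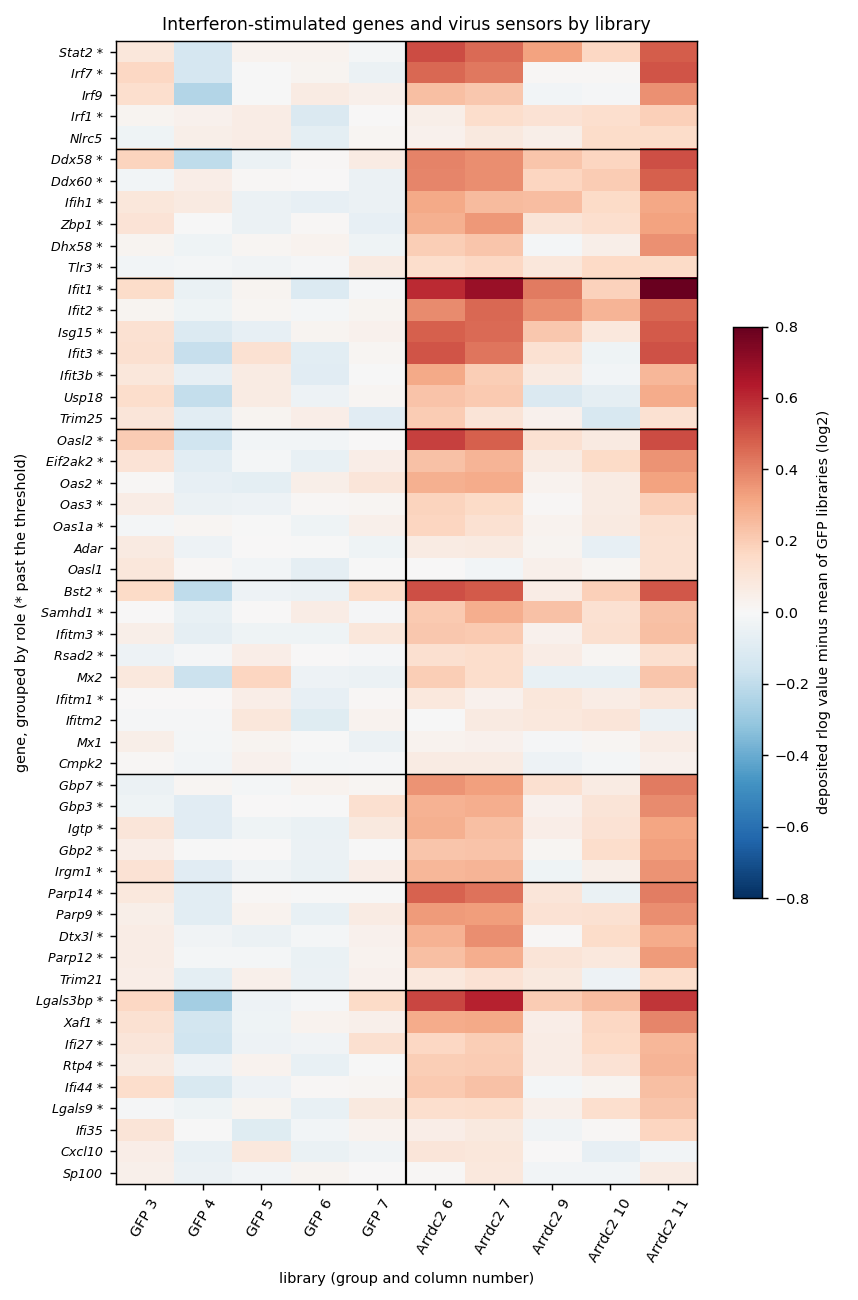
Deposited log2 value of each member in each library minus the gene's mean over the GFP libraries, with genes grouped by role and those that rose marked by an asterisk. Arrdc2 libraries 6, 7 and 11 are raised across nearly all roles, and libraries 9 and 10 are paler, with Irf7 and Irf9 close to the GFP level there.

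All 16 muscle markers were expressed, and 4 fell. Their sum ran from 491921 to 517198 normalised reads in GFP and from 448760 to 487272 in Arrdc2 libraries. Of all tested genes 14.5% rose and 15.8% fell, which is the background for the counts of each marker list here. Of 12 macrophage markers 3 passed the lower limit, C1qa was at 0, and their sum was 188 to 228 reads in GFP and 206 to 233 in Arrdc2 libraries, with none called. Of 8 dendritic cell markers 4 passed, Siglech was at 0, and the sum was 3709 to 3821 and 3760 to 4453. Most of this sum was Tcf4, with means of 3302 in GFP and 3442 in Arrdc2 libraries, which was not called. Flt3, Itgax and Xcr1 had at most 4.82 normalised reads in any library. The gene that rose was Bst2, itself a member. Fibroblast markers summed to 75201 to 89359 and 84183 to 94638 reads, and 2 of 6 tested rose (Col3a1 and Dcn). Endothelial markers summed to 120.3 to 143 and 164 to 194 reads, all 3 of 8 that passed rose (Tek, Vwf and Cldn5), and Tie1 was at 0. Cldn5 was close to the threshold (limma adjusted p = 0.0488) and was not called by voom (adjusted p = 0.0565). Pecam1, Cdh5, Kdr and Emcn had at most 12.7 normalised reads in any library. From GFP to Arrdc2 libraries the means were 7.21 and 4.52 for Kdr, 0.507 and 0 for Emcn, 3.39 and 3.45 for Pecam1, and 2.63 and 3.84 for Cdh5. The part of these shifts in the results was not tested, and in bulk RNA fewer cells of a type and less RNA per cell cannot be told apart.

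Among the transcription factors that drive the response, Stat2, Irf7 and Irf1 rose. Stat2 (ENSMUSG00000040033.17), a signal transducer that works in a complex with IRF9, stood at 1315, 1043, 1239, 1235 and 1179.7 normalised reads in the GFP libraries and 1985, 1867, 1643, 1417 and 1918 in the Arrdc2 libraries. It rose 1.46-fold (95% interval 1.298 to 1.64; log2 difference 0.39 ± 0.06 SE; limma adjusted p = 3.24e-05), and the lowest Arrdc2 library, 10, lay above the highest GFP library, 3. Irf7, which amplifies the production of interferon, stood at 161, 72.3, 113, 118 and 99.5 normalised reads in the GFP libraries and 259, 246, 115, 117 and 279 in the Arrdc2 libraries. Libraries 6, 7 and 11 were above every GFP library, and libraries 9 and 10 within the GFP range. Irf7 rose 1.69-fold (95% interval 1.16 to 2.47; log2 difference 0.28 ± 0.08 SE; limma adjusted p = 0.0159), but it was not called without Arrdc2 library 11 (0.0515), when all genes were tested (0.0698), with no mean-variance trend (0.0549) or with robust empirical Bayes (0.0896), all limma adjusted p-values.

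Irf9, the DNA-binding subunit of the complex, stood at 674, 431, 578, 624 and 606 normalised reads in the GFP libraries and 754, 739, 567, 574 and 866 in the Arrdc2 libraries. Libraries 6, 7 and 11 were again above the GFP range and libraries 9 and 10 inside it. It was not called, at 1.19-fold (95% interval 1.01 to 1.402; limma adjusted p = 0.0891), but limma called it higher without Arrdc2 library 9 (adjusted p = 0.0345) or library 10 (0.0249), and with libraries weighted by their quality (0.0432). Irf1, a factor induced by interferon gamma and other signals, had another order, with 840, 849, 871, 723 and 821 normalised reads in the GFP libraries and 864, 948, 927, 943 and 999 in the Arrdc2 libraries. Library 6 was its lowest Arrdc2 library and libraries 9 and 10 lay above every GFP library. It rose 1.14-fold (95% interval 1.05 to 1.23; limma adjusted p = 0.0117). Nlrc5, the activator of MHC class I genes, stood at 173, 200.4, 204, 159 and 189 normalised reads in the GFP libraries and 196, 211, 200.3, 234 and 236 in the Arrdc2 libraries. Its highest values were in libraries 10 and 11, and it was not called, at 1.17-fold (95% interval 1.02 to 1.33; limma adjusted p = 0.0626), except without GFP library 5 (0.0423) or Arrdc2 library 6 (0.0417), both limma adjusted p-values.

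**Figure D4:**
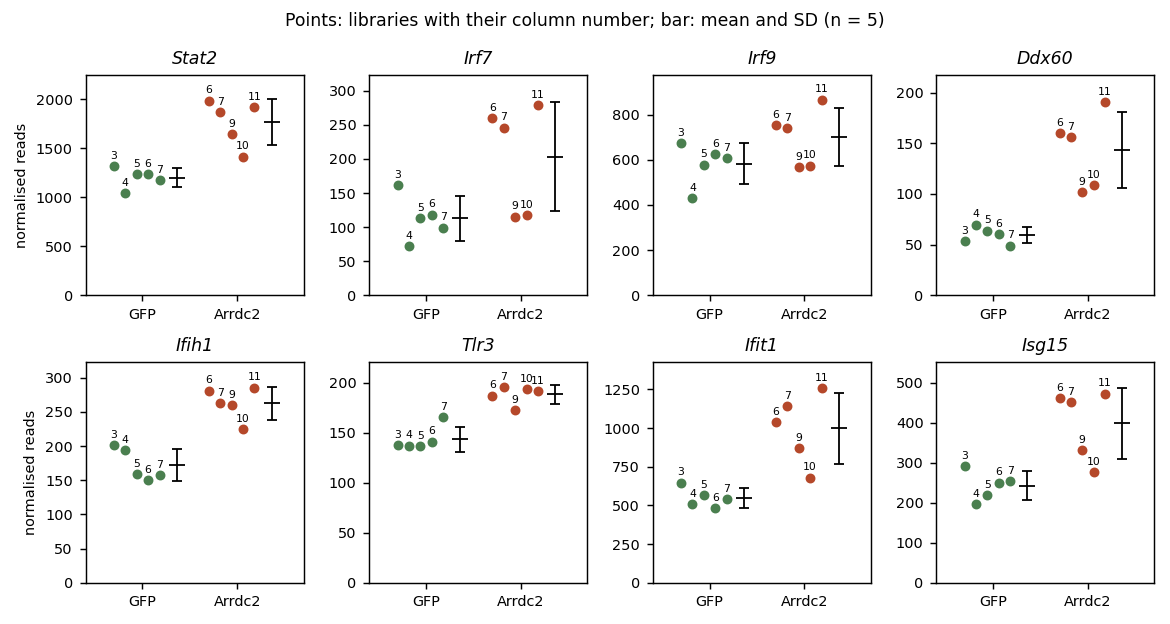
Normalised reads of 8 members in every library, with the column number above each point and the mean and SD (n = 5) beside them. Irf7 and Irf9 have Arrdc2 libraries 9 and 10 at the GFP level, whereas for Stat2, Ddx60, Ifih1, Tlr3 and Ifit1 all 5 Arrdc2 libraries lie above the GFP libraries.

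All 6 virus sensors rose, although the call of Dhx58 depended on the variance model and filter. Ddx58, which encodes the RNA sensor RIG-I, stood at 507, 301, 385, 412 and 441 normalised reads in the GFP libraries and 652, 634, 536, 502 and 743 in the Arrdc2 libraries. All but a single Arrdc2 library cleared the GFP range, library 10 being the exception. It rose 1.49-fold (95% interval 1.27 to 1.76; log2 difference 0.34 ± 0.06 SE; limma adjusted p = 0.000552). Ifih1, which encodes MDA5, a sensor of long double-stranded RNA, stood at 201, 194, 159, 150.5 and 157 normalised reads in the GFP libraries and 281, 263, 260.4, 225 and 286 in the Arrdc2 libraries. The groups did not overlap, and libraries 7 and 9 were nearly equal. The rise was 1.54-fold (95% interval 1.34 to 1.76; log2 difference 0.25 ± 0.04 SE; limma adjusted p = 6.69e-05). Dhx58, which encodes LGP2, a regulator of both sensors, stood at 56.1, 43.1, 56.4, 59.1 and 44.9 normalised reads in the GFP libraries and 98.4, 105, 49.6, 63.5 and 145 in the Arrdc2 libraries. Library 9 lay within the GFP range, and the gene rose 1.63-fold (95% interval 1.15 to 2.33; limma adjusted p = 0.0173). Its call was lost with no filter on low values (0.0676), no mean-variance trend (0.0521) or robust empirical Bayes (0.0534), all limma adjusted p-values.

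Tlr3, the endosomal receptor of double-stranded RNA, stood at 137, 137, 137, 141 and 166 normalised reads in the GFP libraries and 187, 196, 173, 194 and 192 in the Arrdc2 libraries. Its Arrdc2 values were close together, with libraries 9 and 10 among them, and every one was above the GFP range. Tlr3 rose 1.31-fold (95% interval 1.16 to 1.48; log2 difference 0.14 ± 0.03 SE; limma adjusted p = 0.001301). Zbp1, a sensor of left-handed nucleic acids that can start cell death, stood at 78.97, 50.7, 44.4, 56.03 and 38.5 normalised reads in the GFP libraries and 123, 141, 78.2, 85.5 and 134 in the Arrdc2 libraries. Library 9 just failed to clear the highest GFP library, and Zbp1 rose 2.09-fold (95% interval 1.55 to 2.799; limma adjusted p = 0.000426). Ddx60 (ENSMUSG00000037921.16) stood at 53.8, 69.8, 63.8, 60.2 and 49.2 normalised reads in the GFP libraries and 159.9, 156, 102, 109 and 191 in the Arrdc2 libraries. The highest GFP library, at 69.8 reads, lay well below the lowest Arrdc2 library, at 102, and the gene rose 2.34-fold (95% interval 1.795 to 3.06; log2 difference 0.32 ± 0.05 SE; limma adjusted p = 3.28e-05).

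In the IFIT and ISG15 system 5 of 7 genes rose. Ifit1 (ENSMUSG00000034459.9) stood at 647, 507, 564, 480.4 and 539 normalised reads in the GFP libraries and 1038, 1142, 868, 679 and 1259 in the Arrdc2 libraries. Library 10 was close to GFP library 3 and library 11 well above it. The rise was 1.78-fold (95% interval 1.47 to 2.16; log2 difference 0.54 ± 0.08 SE; limma adjusted p = 4.96e-05), the largest log2 difference of the 53. Ifit2, a relative that also binds RNA, stood at 632, 587, 628, 604 and 629.9 normalised reads in the GFP libraries and 927, 1009, 925, 833 and 1012 in the Arrdc2 libraries. Here the GFP libraries were within a narrow range and all Arrdc2 libraries were clear of it, and Ifit2 rose 1.52-fold (95% interval 1.398 to 1.65; log2 difference 0.39 ± 0.04 SE; limma adjusted p = 2.02e-07). Isg15 stood at 292, 197, 218, 250.1 and 255 normalised reads in the GFP libraries and 461, 451, 331, 276 and 473 in the Arrdc2 libraries. All but library 10 were above the GFP range, and Isg15 rose 1.61-fold (95% interval 1.304 to 1.98; log2 difference 0.34 ± 0.07 SE; limma adjusted p = 0.000639).

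Ifit3 (1.62-fold; limma adjusted p = 0.01098) and Ifit3b (1.64-fold; 0.0191) rose, although 51.2% of the 50-base stretches in Ifit3 transcripts also occur in Ifit3b, and 45.0% of those in Ifit3b occur elsewhere, chiefly in Ifit3, so the reads given to each are uncertain. Ifit3 lost its call with no filter on low values (limma adjusted p = 0.0521) or robust empirical Bayes (0.0725). Ifit3b lost its call without GFP library 4 or 6 or Arrdc2 library 6 or 11 (limma adjusted p = 0.0513 to 0.0596), and with no filter (0.0720), no mean-variance trend (0.0550) or robust empirical Bayes (0.0558). Usp18, which removes ISG15 from proteins and dampens receptor signalling, was not called, at 1.37-fold (95% interval 0.817 to 2.31; limma adjusted p = 0.249). Its GFP values alone ran from 21.6 to 101.9 normalised reads. Trim25, a ubiquitin ligase that acts on RIG-I, was not called, at 1.07-fold (95% interval 0.956 to 1.19; limma adjusted p = 0.344), except without Arrdc2 library 10 (limma adjusted p = 0.0416).

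Of 7 enzymes that act on or sense double-stranded RNA 5 rose. Oasl2, a relative of the oligoadenylate synthetases that activate RNase L, stood at 369.6, 211, 272, 269 and 278 normalised reads in the GFP libraries and 557, 519, 331, 310.2 and 547 in the Arrdc2 libraries. Libraries 9 and 10 were below GFP library 3, and Oasl2 rose 1.58-fold (95% interval 1.23 to 2.01; log2 difference 0.35 ± 0.08 SE; limma adjusted p = 0.00332). Oas2 stood at 32.04, 15.2, 17.6, 40.5 and 51.3 normalised reads in the GFP libraries and 94.00, 98.3, 38.1, 45.6 and 104 in the Arrdc2 libraries, with the same libraries inside the GFP range, and rose 2.41-fold (95% interval 1.46 to 3.99; limma adjusted p = 0.00495). Eif2ak2, which encodes the kinase PKR that halts translation, stood at 1162, 950.1, 1027, 977 and 1101 normalised reads in the GFP libraries and 1315, 1369, 1117, 1216 and 1487 in the Arrdc2 libraries. All but library 9 were above the GFP range, and it rose 1.24-fold (95% interval 1.12 to 1.37; log2 difference 0.22 ± 0.05 SE; limma adjusted p = 0.00179).

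Oas3 rose 2.64-fold and Oas1a 1.98-fold, the former from a mean of 15.3 ± 8.87 to 39.1 ± 15.9 and the latter from 20.5 ± 5.83 to 41.2 ± 11.3 normalised reads (SD, n = 5 each). Both intervals are wide, 1.502 to 4.63 and 1.397 to 2.802, and 57.6% of the 50-base stretches of Oas1a are shared with its relatives, chiefly Oas1g. Oasl1 was not called, at 1.08-fold (95% interval 0.916 to 1.27; limma adjusted p = 0.516). Adar, which edits adenosine in double-stranded RNA, was not called either, at 1.04-fold (95% interval 0.969 to 1.12; limma adjusted p = 0.381); 14.4% of its stretches occur on the opposite strand in Chrnb2, and while the library kit keeps strand, no source used here states the strand setting of the counting.

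Among 9 effectors at membranes and nucleotide pools 5 rose. Bst2, the tether, stood at 486, 298, 383, 379 and 479 normalised reads in the GFP libraries and 731, 714, 435, 510.5 and 719.9 in the Arrdc2 libraries. Library 9 was within the GFP range and libraries 6, 7 and 11 well above it, and Bst2 rose 1.51-fold (95% interval 1.23 to 1.87; log2 difference 0.35 ± 0.08 SE; limma adjusted p = 0.00246). Samhd1, which hydrolyses deoxynucleotides, stood at 1043, 978, 1046, 1104 and 1032 normalised reads in the GFP libraries and 1285, 1393, 1320, 1176 and 1315 in the Arrdc2 libraries. The groups did not overlap, library 9 was among its highest, and Samhd1 rose 1.24-fold (95% interval 1.16 to 1.33; log2 difference 0.22 ± 0.03 SE; limma adjusted p = 7.23e-05). Ifitm3, which blocks fusion of viruses with endosomes, stood at 3478, 3128, 3241, 3229 and 3629 normalised reads in the GFP libraries and 4053, 4026, 3433, 3743 and 4139 in the Arrdc2 libraries. Only library 9 lay below the highest GFP library, and Ifitm3 rose 1.16-fold (95% interval 1.07 to 1.25; limma adjusted p = 0.00418).

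Rsad2, the radical enzyme viperin, rose 1.42-fold and Ifitm1 1.39-fold; Ifitm1 lost its call without GFP library 6 or Arrdc2 library 9 or 11 (limma adjusted p = 0.0509 to 0.0744), and with libraries centred on their medians (0.0589) or quantile normalization (0.0639). The classical targets Mx1 and Mx2, dynamin-like GTPases, were not called, at 1.21-fold (95% interval 0.893 to 1.65; limma adjusted p = 0.362) and 1.28-fold (95% interval 0.873 to 1.87; limma adjusted p = 0.291). Cmpk2, a mitochondrial nucleotide kinase, was not called at 14.2 ± 4.100 and 18.6 ± 8.92 normalised reads (SD, n = 5), nor was Ifitm2, at 1.05-fold (95% interval 0.953 to 1.16; limma adjusted p = 0.438). Of the 50-base stretches of Ifitm2 48.5% recur in other genes.

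All 5 interferon-inducible GTPases, which attack vacuoles of intracellular pathogens, rose. Gbp7 stood at 83.5, 97.7, 93.4, 104 and 101 normalised reads in the GFP libraries and 200.3, 192, 132, 114 and 222 in the Arrdc2 libraries, with no overlap between the groups, and rose 1.72-fold (95% interval 1.34 to 2.21; log2 difference 0.26 ± 0.05 SE; limma adjusted p = 0.000899). Gbp3 stood at 114, 96.4, 128, 125 and 164 normalised reads in the GFP libraries and 211, 217, 136, 155 and 249 in the Arrdc2 libraries. GFP library 7 lay above Arrdc2 libraries 9 and 10, and Gbp3 rose 1.51-fold (95% interval 1.195 to 1.899; limma adjusted p = 0.00517). Igtp stood at 199, 136, 157, 150.5 and 191 normalised reads in the GFP libraries and 266, 251, 185, 206 and 279.9 in the Arrdc2 libraries, of which only library 9 was within the GFP range, and rose 1.41-fold (95% interval 1.18 to 1.69; limma adjusted p = 0.00345). Gbp2 rose 1.58-fold (95% interval 1.25 to 2.01; limma adjusted p = 0.00273). Irgm1 rose 1.198-fold (95% interval 1.05 to 1.36; limma adjusted p = 0.0272), a call lost without GFP library 4, 5 or 6 or Arrdc2 library 6, 7 or 11 (limma adjusted p = 0.0527 to 0.0856), and with no filter (0.0985), no mean-variance trend (0.0687) or robust empirical Bayes (0.0709). Between 2.03% and 12.7% of the stretches of Gbp2, Gbp3, Gbp7 and Igtp are shared with other genes.

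In the group of ADP-ribosyltransferases and ubiquitin ligases 4 of 5 rose. Parp14, which attaches single ADP-ribose units, stood at 173, 118, 149.9, 146 and 145 normalised reads in the GFP libraries and 315, 302, 176, 134 and 292 in the Arrdc2 libraries. Library 10 was inside the GFP range and library 9 barely above it, and Parp14 rose 1.56-fold (95% interval 1.15 to 2.12; limma adjusted p = 0.0109), a call lost with robust empirical Bayes (0.0635). Parp9 and Dtx3l encode partners in an ADP-ribosylating ubiquitin ligase. Parp9 stood at 323, 264, 316, 278 and 334 normalised reads in the GFP libraries and 472, 469, 357, 358 and 491 in the Arrdc2 libraries, with no overlap, and rose 1.398-fold (95% interval 1.21 to 1.62; limma adjusted p = 0.000689). Dtx3l stood at 389, 345, 340.5, 353 and 376 normalised reads in the GFP libraries and 511, 570.3, 367, 436 and 521 in the Arrdc2 libraries, with library 9 within the GFP range, and rose 1.32-fold (95% interval 1.15 to 1.52; limma adjusted p = 0.00277). Of their 50-base stretches, 7.71% for Parp9 and 8.02% for Dtx3l occur on the opposite strand, chiefly in each other. Parp12 rose 1.27-fold (95% interval 1.14 to 1.42; limma adjusted p = 0.00122). Trim21, an antibody receptor of the cytosol, was not called, at 1.22-fold (95% interval 0.982 to 1.51; limma adjusted p = 0.112), except without Arrdc2 library 10 (limma adjusted p = 0.0168) or with library weights (0.0472).

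Of 9 other induced genes 6 rose. Lgals3bp, a secreted glycoprotein that binds galectins, stood at 1059, 653, 856, 879.9 and 1045 normalised reads in the GFP libraries and 1518, 1637, 1099, 1150.4 and 1578 in the Arrdc2 libraries. The lowest Arrdc2 library, 9, was above the highest GFP library, 3, and Lgals3bp rose 1.55-fold (95% interval 1.298 to 1.84; log2 difference 0.43 ± 0.08 SE; limma adjusted p = 0.000457). Xaf1, a promoter of apoptosis, stood at 358, 237, 289.6, 315 and 321 normalised reads in the GFP libraries and 448, 451, 328, 379 and 503 in the Arrdc2 libraries. All but library 9 cleared the GFP range, and it rose 1.37-fold (95% interval 1.17 to 1.61; limma adjusted p = 0.00268). Ifi27, a small membrane protein, stood at 3138, 2474, 2772, 2799 and 3229.9 normalised reads in the GFP libraries and 3344, 3434, 3039.6, 3322 and 3662 in the Arrdc2 libraries, with library 9 below the highest GFP libraries, and rose 1.17-fold (95% interval 1.07 to 1.28; limma adjusted p = 0.00968).

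The chemokine Cxcl10, which attracts T cells, stood at 86.98, 58.4, 94.4, 61.2 and 67.4 normalised reads in the GFP libraries and 96.6, 96.3, 74.4, 59.4 and 69.2 in the Arrdc2 libraries. Libraries 6 and 7 were just above the GFP range and the other 3 within it, and the gene was not called, at 1.06-fold (95% interval 0.834 to 1.34; limma adjusted p = 0.6905). Rtp4 rose 1.53-fold and Lgals9, which encodes a galectin, 1.14-fold. Ifi44 rose 1.64-fold, but its call (limma adjusted p = 0.0451) did not hold when GFP library 4, 5, 6 or 7 or Arrdc2 library 6, 7 or 11 was left out (0.0667 to 0.131), nor by voom (adjusted p = 0.0653), nor with other filters, scalings and variance models (no filter 0.141, median centring 0.0727, quantile normalization 0.0689, no trend 0.103, robust empirical Bayes 0.111). Ifi35 was not called, at 1.07-fold (95% interval 0.971 to 1.17; limma adjusted p = 0.307), nor was Sp100, a nuclear body protein, at 1.12-fold (95% interval 0.827 to 1.51; limma adjusted p = 0.5404).

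A list of 46 interferons, receptors, kinases, adaptors and inhibitors had 34 genes above the lower limit. Of these 4 rose (11.8%) and 5 fell, against 14.5% and 15.8% of all tested genes, so these counts were near the background. The median fold of the 34 was 0.986. Ifnb1, Ifna2 and Ifnl3 had 0 reads in every library, and Ifna4 and Ifne at most 1.76 normalised reads in any. Ifng had between 0 and 6.92 normalised reads. The transcripts of these listed interferons were therefore at or near the limit of detection at this depth in both groups. Other interferon genes were not examined, and samples of a single labelled time do not show whether interferons were transcribed earlier. Receptor and kinase transcripts were present. Ifnar1 stood at 1349, 1285, 1370.3, 1318 and 1312 normalised reads in the GFP libraries and 1327, 1267, 1385, 1327 and 1314 in the Arrdc2 libraries, with overlapping groups and a ratio of 0.997-fold (95% interval 0.941 to 1.06; limma adjusted p = 0.957). Ifnar2 was at 0.904-fold (95% interval 0.805 to 1.01; limma adjusted p = 0.175) and the adaptor Mavs, through which RIG-I and MDA5 signal, at 0.966-fold (95% interval 0.901 to 1.04; limma adjusted p = 0.455), neither being called.

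Tmem173, Tyk2 and Ikbke were among those that rose. Tmem173, the DNA-sensing adaptor STING, stood at 505, 497, 457, 434 and 511 normalised reads in the GFP libraries and 575, 595, 623, 567 and 653 in the Arrdc2 libraries, with no overlap and with library 9 among its highest, and rose 1.25-fold (95% interval 1.15 to 1.37; limma adjusted p = 0.000394). Tyk2 rose 1.16-fold and Ikbke, a kinase that activates interferon regulatory factors, 1.199-fold (limma adjusted p = 0.0451); the latter call did not hold when GFP library 4, 5 or 7 or Arrdc2 library 6, 9 or 10 was left out (0.0509 to 0.142), nor with no filter (0.0795), median centring (0.0752), quantile normalization (0.114) or library weights (0.0607). Irf3 was not called (limma adjusted p = 0.0558), although all 5 Arrdc2 libraries lay above the GFP libraries, and it was called without Arrdc2 library 9 (0.0483), among genes with a mean of 5 or more (0.0479) or with no mean-variance trend (0.0234). Socs3, an inhibitor of cytokine signalling, fell 1.31-fold (limma adjusted p = 2.98e-05), from 909.8, 833, 841, 918 and 847 in the GFP libraries to 691, 703, 599.9, 633 and 703 normalised reads in the Arrdc2 libraries, with no overlap. Traf3 fell 1.18-fold (limma adjusted p = 0.005105), Tlr4 1.12-fold (limma adjusted p = 0.00881) and the phosphatase Ptpn11 1.096-fold (limma adjusted p = 0.00573), the last not called after quantile normalization (0.326). Ptpn2, a tyrosine phosphatase, fell 1.11-fold (limma adjusted p = 0.0324), and lost its call without GFP library 3, 4 or 7 or Arrdc2 library 6, 7 or 9 (0.0573 to 0.0876) and with no filter (0.0637).

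MHC class I presentation genes, many of which interferon also raises, numbered 22 tested, of which 12 rose and 0 fell, against 14.5% and 15.8% of all genes. At least a 1.5-fold difference was reached by 3 of them, all with few reads. Psmb9 rose 2.90-fold, from a mean of 5.02 to 14.1 normalised reads. Psmb8 rose 1.96-fold, from a mean of 13.5 to 28.0. For both genes all 5 Arrdc2 libraries lay above the GFP libraries. H2-T24, at 1.80-fold, was not called. Among the 22 genes the largest log2 differences were in Tapbp, which helps load peptides, at 1.33-fold, H2-Q4 at 1.38-fold and H2-T23 at 1.35-fold. Their mean deposited log2 value was 9.04, 9.06, 9.06, 9.06 and 9.05 in Arrdc2 libraries 6, 7, 9, 10 and 11 and 8.95, 8.91, 8.96, 8.91 and 8.92 in the GFP libraries, so libraries 9 and 10 were as high as the rest, whereas the same mean over the 53 members was 8.01, 8.02, 7.84, 7.84 and 8.06 in the Arrdc2 and 7.83, 7.70, 7.77, 7.74 and 7.78 in the GFP libraries. This holds for the mean of the list and not for each of its genes. In Arrdc2 libraries 6, 7, 9, 10 and 11 Tapbp stood at 3376, 3192, 3186, 2731 and 3301 normalised reads. H2-T23 stood at 509, 528, 430, 424 and 472, so libraries 9 and 10 were the lowest for both genes. H2-Q4 stood at 614, 665, 794, 681 and 633, with libraries 9 and 10 the highest. The difference between the lists was not tested. Of 19 subunits and targets of NF-kappaB, a regulator that viral RNA also activates, 4 rose and 7 fell, against 14.5% and 15.8% of all genes. The subunit genes Nfkb2 and Relb were among those that fell. The largest log2 differences were in Ptgs2 (3.33-fold lower), Csf1 (1.57-fold lower) and Cxcl1 (3.09-fold lower). Among those that rose was Ccl5, at 1.91-fold, with all Arrdc2 libraries above the GFP libraries.

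**Figure D5:**
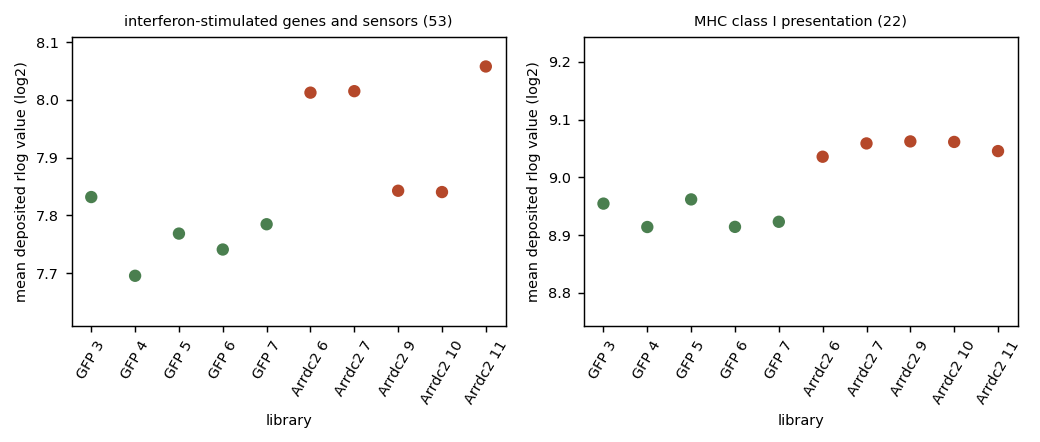
Mean deposited log2 value per library over the 53 members (left) and over 22 MHC class I presentation genes (right), on axes of equal span. Arrdc2 libraries 9 and 10 lie at 7.84 on the left, beside GFP library 3 at 7.83, and at 9.06 on the right, above every GFP library.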

How the data were processed

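RNA from 10 libraries (5 per group) was sequenced from poly(A) RNA with a strand-keeping kit, per the labels' protocols. Reads were aligned with STAR 2.7.10a to GRCm39 and DESeq2 1.30.1 was used, per the submitters' processing notes. The deposited values are log2 values from the authors' regularized log transformation, which scales counts by library and shrinks the distance of a library from the mean of a gene. Symbols came from GENCODE vM21 names and matched 52029 of 57010 identifiers. Columns were assigned to groups by name, and their numbers differ from the sample numbers in the labels.

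Genes with a mean of at least 3 were tested with limma 3.58.1 (R 4.3.3; empirical Bayes with a mean-variance trend; Benjamini-Hochberg threshold 0.05; no covariate). Reads were solved from the deposited values: among 16053 genes not used in solving, 99.39% of values came out whole within 0.1 read, but 89.37% for the most abundant genes. Folds with 95% intervals came from limma voom on these reads. Each interval is for the ratio between the group averages, given the spread between samples, and does not bound single libraries. Values in every library are given for transcription factors, sensors and the 3 members of each other role with the largest log2 difference, plus Isg15, Eif2ak2 and Cxcl10. Upstream genes named are those called, except for a result that is not reported here, plus Ifnar1, Ifnar2, Mavs, Irf3 and the interferons at or near 0. The members and gene lists were chosen with earlier results of these data known. Scripts were tested on simulated data. Alternatives covered filters, scaling, the variance model, the recovered reads and leaving out each library. All pairs of libraries within a group differed by more than counting noise (mean chi-square per gene 2.61 to 17.5).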

Additional observations from a re-analysis of the deposited data

Results flagged for a closer look

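The endosomal RNA receptor Tlr3 had 1 GFP library apart from the rest. GFP library 7 stood at 7.37 on the deposited log2 scale, the next library at 7.29 and the lowest at 7.28, so the gap made up 0.826 of the group's range, above Dixon's critical value of 0.710 for 5 samples. All 5 Arrdc2 libraries lay above it. This was the only case among 108 groups of 5 examined, and chance flags about 1 in 20.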

How the results depend on the processing

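The number of members called higher, 39 as reported, lay within 32 to 41 across filters, scaling, variance models and recovered reads, and within 34 to 42 when 1 library was left out, with 0 called lower in each. No member changed sign. The upstream genes called higher were 4, but 2 with no filter on low values, 5 among genes with a mean of 5 or more or with no mean-variance trend, 3 or 4 in the other fits to all libraries, and 2 to 4 when 1 library was left out, with 2 without GFP library 4 or Arrdc2 library 6; the cause was not tested. Ifnar1, never called, had a log2 difference of −0.0026 that became 0.0015 with quantile normalization and ran from −0.0141 to 0.0085 when 1 library was left out. No paired analysis was possible because the columns carry numbers that do not match the replicate numbers in the labels. Genes with few reads, such as Cmpk2 and Oas3, have wide intervals at this depth.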
